A study of Caenorhabditis elegans with 2 samples.

Results

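Cuticlins and other genes of the extracellular matrix with a zona pellucida (ZP) domain were examined in Caenorhabditis elegans. A gene belonged to the group if its current symbol was cut-, cutl- or noah- with a number, or dyf-7, let-653 or fbn-1, and if it had a probe that the platform annotation gave to it alone. This gave 34 genes with values on both arrays, out of 14777 genes measured, through 36 probes. The RefSeq table held 40 genes with such symbols, and cutl-10, cutl-13, cutl-23, cutl-24, cutl-25 and cutl-26 were not analysed here. The group held 6 cut genes, 23 cutl genes, noah-1, noah-2, dyf-7, let-653 and fbn-1. Genes entered it by symbol and not by value, though the group was chosen with earlier results of these data known.

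Gene expression had been measured on 2 spotted arrays with 2 colours each. Per the labels, the sample channel (channel 2) carried RNA from glp-4 larvae of the L2, the second larval stage, with preparation 1 and preparation 2 on separate arrays, and channel 1 of both carried a shared reference RNA of mixed wild-type worms. The glp-4 mutants are known for a germ line that stays very small when they are grown warm. The labels state no allele, strain, growth temperature or age in hours, nor which stages the reference mixed. Genotype and stage cannot be told apart, since wild-type L2 larvae were not analysed here and the channels differ in both. Separate cultures for the preparations are not stated, so the spread between these arrays may be technical. The limma p-values measure no other spread. They take it in part from a gene's own arrays (1 residual degree of freedom) and in part from all genes together (a prior of 4.52).

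The cuticle of the worm is an apical matrix secreted by the epidermis and remade at every molt. Collagens form most of it, and cuticlins are its insoluble, cross-linked part. ZP domains let secreted matrix proteins polymerise. Several cuticlins build the alae, ridges that run along the body over the seam cells in the first larval stage, in dauer larvae (the alternative larva of harsh conditions) and in adults, but not in the L2. Other ZP proteins form a transient sheath around the embryo and line the lumens of narrow tubes.

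Values are log2 ratios as deposited, and the number of arrays limits their precision. Their direction is not stated: it was read as likely glp-4 L2 over reference because all 30 measured major sperm protein genes and all 3 measured yolk genes lay below 0 on both arrays, so these are no finding, and every sign below would turn if that reading were wrong. The median over all genes was 0.10 for preparation 1 and 0.02 for preparation 2, and across genes, which are not independent replicates, the arrays correlated at r = 0.53. No value of the gene mutated in glp-4 worms is used as a check of the labels. The 6 germ cell markers pgl-1, glp-1, gld-1, cgh-1, glh-1 and him-3 all lay at least 2-fold below the reference on both arrays (list median -2.93), of which cgh-1, him-3 and pgl-1 passed the test. The adult collagen gene col-19 had a log2 ratio of -3.28 and -3.10 on the preparation 1 and 2 arrays (limma adjusted p = 0.0325). Of 11 epidermis and seam markers 10 were measured, with a median of 0.57 for preparation 1 and -0.06 for preparation 2. A ratio holds no level, so it cannot show whether a gene was on, and fewer cells of a type cannot be told apart from less RNA per cell.

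Among cuticlins and ZP genes, the dauer cuticlin gene cut-1 was lower in glp-4 L2, by 21.4-fold, and cut-2 was higher, by 10.2-fold. They were the 2 genes of the 34 past the test (limma with Benjamini-Hochberg adjustment over all 14777 genes, threshold 0.05), and 32 did not pass. Over all genes 1.86% were called, 1.5% lower and 0.365% higher. At an unadjusted p under 0.05 there were 10 of the 34, against 18.7% of all genes. Without a test, 4 were at least 2-fold below the reference on both arrays (7.35% of all genes). At least 2-fold above it on both were 5 (4% of all genes). Either array alone put 9 at least 2-fold above it. Over all 14777 genes the preparation 1 array put 1967 there and the preparation 2 array 1994. Apart from the 4 and the 5, 9 genes were beyond 2-fold on 1 array, which was not counted over all genes. Another 16 of the 34 lay within 2-fold on both, beside 7986 of all 14777 genes. The median log2 ratio of the 34 genes was 0.40 (0.41 for preparation 1 and 0.17 for preparation 2), beside 0.08 for all genes.

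**Figure D1:**
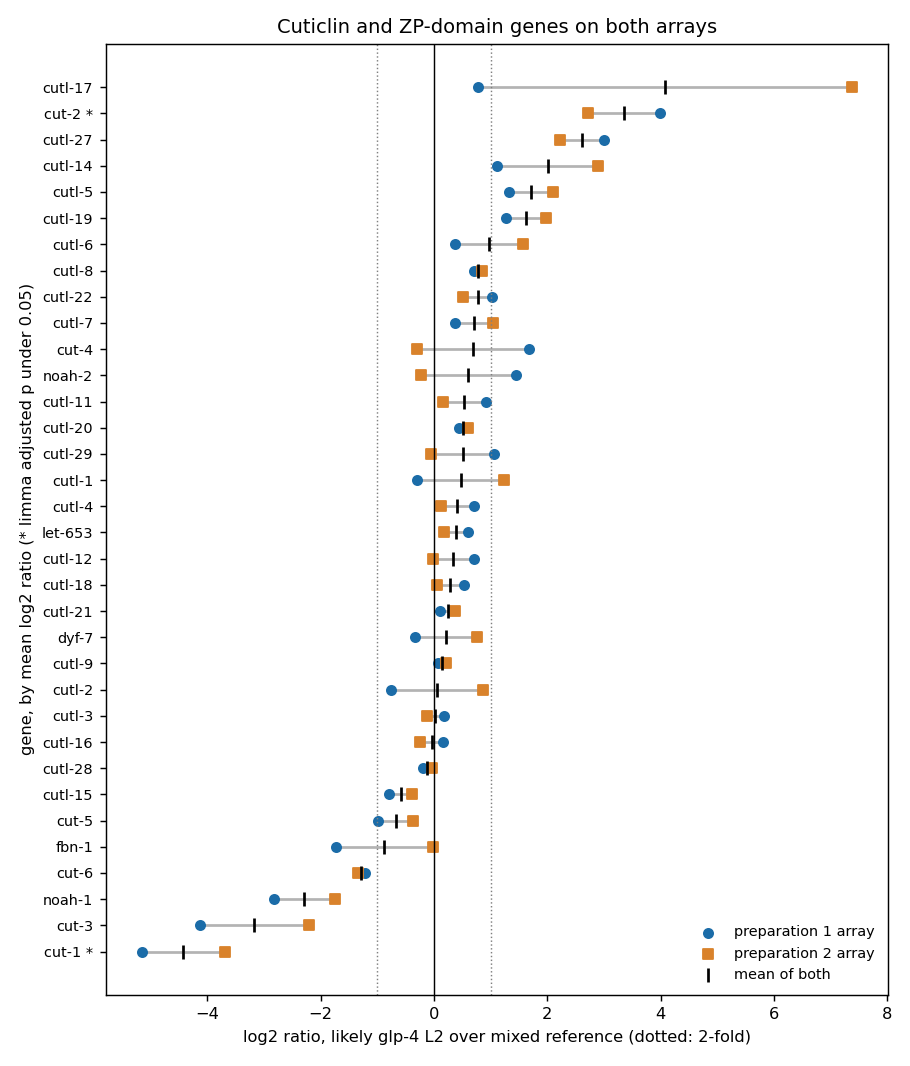
Log2 ratio (horizontal axis, likely glp-4 L2 over the mixed reference) of each of the 34 genes on the preparation 1 array (blue circles) and the preparation 2 array (orange squares), with the mean as a black tick and genes in order of their mean. The cut genes lie toward both ends, with cut-1 at -5.16 and -3.68 and cut-2 at 3.99 and 2.71, while cutl-17 has the widest gap between arrays.

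Of the cuticlins known from the alae, cut-1, cut-3, cut-5 and cut-6, 1 passed the test. cut-1 encodes a cuticlin of the dauer larva, where it lies beneath the alae. The log2 ratio of cut-1 was -5.16 for preparation 1 and -3.68 for preparation 2. Both values were far below 0, at rank 20 and rank 86 from the lowest among all genes. The mean of cut-1 was -4.42 ± 1.05 (SD, n = 2; limma 95% interval from -5.67 to -3.17, adjusted p = 0.0296).

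cut-3 is needed for the alae of the first larval stage. Its log2 ratio was -4.13 for preparation 1 and -2.21 for preparation 2, below 0 on both but 1.92 log2 units apart. The mean of cut-3 was -3.17 ± 1.36 (SD, n = 2; limma 95% interval from -4.58 to -1.76, adjusted p = 0.0647), short of the threshold. With each array centred on its median the adjusted p of cut-3 by limma was 0.0401, and after quantile normalization 0.0223.

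cut-6 is a cuticlin required for the alae and narrow body of dauer larvae. Its log2 ratio was -1.22 for preparation 1 and -1.35 for preparation 2, the closest match between arrays in the whole group. The mean of cut-6 was -1.28 ± 0.09 (SD, n = 2; limma adjusted p = 0.185). 2 probes of cut-6 were averaged. They read -1.50 and -0.94 on the preparation 1 array and -1.65 and -1.04 on the preparation 2 array, so every reading was below 0.

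cut-5 is needed for alae in the first larval stage and in dauer larvae. Its log2 ratio was -0.99 for preparation 1 and -0.36 for preparation 2, with a mean of -0.67 ± 0.44 (SD, n = 2; limma 95% interval from -1.70 to 0.35, adjusted p = 0.417). The order of the means within these alae cuticlins was thus cut-1, cut-3, cut-6 and cut-5 from the lowest. Each gene's limma interval overlapped that of the next in this order.

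Markers of dauer larvae had ratios below 0 beside these cuticlins. All 3 measured lay at least 2-fold below the reference on both arrays, beside 7.35% of all genes. The 6 germ cell markers and col-19 did so as well, so this was not particular to dauer markers. The dauer list, too, was chosen with earlier results known. The small heat shock protein gene hsp-12.6 had log2 ratios of -4.84 and -4.80 on the preparation 1 and 2 arrays (mean -4.82 ± 0.03, SD, n = 2; limma adjusted p = 0.0208). The dauer collagen gene col-2 was at -3.13 and -3.96 (limma adjusted p = 0.0322). col-40, another dauer collagen gene, was at -1.95 and -2.93, short of the threshold (limma adjusted p = 0.0653). Whether dauer larvae in the reference had a part in the values of cut-1, cut-3, cut-5 and cut-6 was not tested.

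cut-2 encodes a cuticlin built of short repeats and known for cross-linking through tyrosines; it is a member by name and is not known for a ZP domain. The log2 ratio of cut-2 was 3.99 for preparation 1 and 2.71 for preparation 2. Both arrays put it far above the reference, at rank 30 and rank 201 from the highest among all genes. The mean of cut-2 was 3.35 ± 0.90 (SD, n = 2; limma 95% interval from 2.17 to 4.54, adjusted p = 0.0424). When no log2 ratio was let beyond 5 in size, its adjusted p by limma was 0.0599, which ends the call. cut-4 had no settled sign, with a log2 ratio of 1.68 for preparation 1 and -0.30 for preparation 2 (limma adjusted p = 0.542).

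The cut genes spread widely. Their mean log2 ratios ran from -4.42 to 3.35, with 4 of 6 below 0 on both arrays and 1 above 0 on both. Over all genes 30.8% lay below 0 on both arrays and 37% above.

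**Figure D2:**
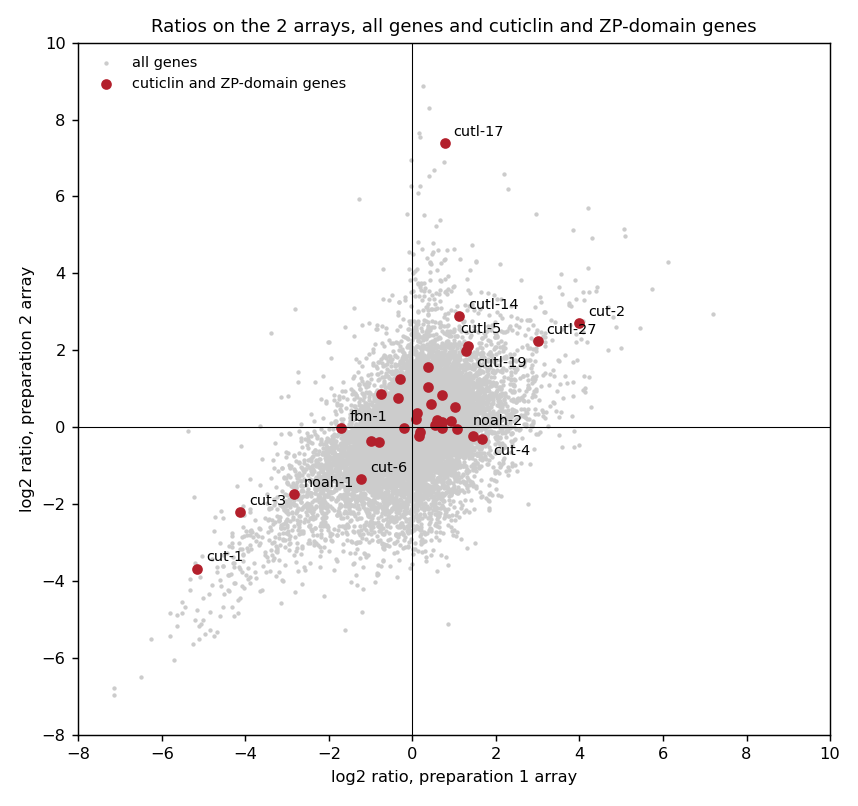
Log2 ratio on the preparation 1 array (horizontal axis) against the preparation 2 array (vertical axis) for all 14777 genes (grey) and the 34 cuticlin and ZP genes (red), with the genes furthest from 0 named. cut-1, cut-3 and noah-1 extend along the lower diagonal and cut-2 and cutl-27 along the upper one, whereas cutl-17 stands at 0.77 on one axis and 7.39 on the other.

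The cutl genes, named for their likeness to cuticlins, mostly lay above the reference, though none of the 23 passed the test by limma. Over all genes 1.86% passed. An unadjusted p under 0.05 by limma was found for 5 of the 23, beside 18.7% of all genes. The median log2 ratio of the 23 was 0.51 (0.53 for preparation 1 and 0.52 for preparation 2). Of the 23, 15 lay above 0 on both arrays, 2 below 0 on both and 6 had opposite signs. Over all genes these shares were 37%, 30.8% and 32.2%. No test compared the cutl genes with the cut genes, since a list's members are not replicates.

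The cutl gene with the lowest adjusted p was cutl-27. Its log2 ratio was 2.997 for preparation 1 and 2.23 for preparation 2, both well above 0. The mean was 2.61 ± 0.54 (SD, n = 2; limma 95% interval from 1.56 to 3.67, adjusted p = 0.0543), a 6.12-fold ratio just short of the threshold. cutl-27 passed with each array centred on its median (limma adjusted p = 0.0365) and after quantile normalization (limma adjusted p = 0.0212).

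A further 3 cutl genes were at least 2-fold above the reference on both arrays without passing the test. cutl-14 had log2 ratios of 1.12 and 2.89 on the preparation 1 and 2 arrays (mean 2.01 ± 1.25, SD, n = 2; limma adjusted p = 0.151). cutl-5 had log2 ratios of 1.33 and 2.11 (mean 1.72 ± 0.55; limma adjusted p = 0.128). Both were higher on the preparation 2 array. cutl-19 was at 1.28 and 1.98, in the same order (mean 1.63 ± 0.49; limma adjusted p = 0.135).

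cutl-17 had the largest mean of the group but rested on 1 array. Its single probe had a log2 ratio of 0.77 for preparation 1 and 7.39 for preparation 2, where it ranked 5 from the highest among all genes. The gap of 6.61 log2 units gave a mean of 4.08 ± 4.68 (SD, n = 2; limma 95% interval from 0.43 to 7.73, adjusted p = 0.232). That interval rests on a limma SE of 1.46, which draws in part on the spread of other genes. The next largest SD in the group was 1.39, of cut-4.

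Of the other 18 cutl genes, 5 were beyond 2-fold on 1 array and the rest within 2-fold on both. No count over all genes stands beside the 5. The log2 ratios of the 18 ran from -0.79 through a median of 0.38 to 1.07 on the preparation 1 array. On the preparation 2 array they ran from -0.38 through 0.19 to 1.58. The lowest limma adjusted p among them was 0.325. Their limma 95% intervals reached down to -1.59 and up to 2.14, and the interval of each of the 18 reached past a 2-fold ratio, so a 2-fold difference was not excluded for any. By the larger of a gene's absolute values, cutl-3, cutl-28, cutl-9 and cutl-16 were the closest to 0. cutl-3 had log2 ratios of 0.18 and -0.13 on the preparation 1 and 2 arrays, cutl-28 had -0.20 and -0.03, cutl-9 had 0.07 and 0.22, and cutl-16 had 0.16 and -0.24. Genes with opposite signs included cutl-1, at -0.30 and 1.25 on the preparation 1 and 2 arrays, and cutl-2, at -0.76 and 0.87. The values of cutl-1 are averages of 2 probes. The first read -0.66 and 0.67 on the preparation 1 and 2 arrays, and the second 0.07 and 1.82. The second probe of cutl-1 was thus above 0 on both arrays.

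No common direction was settled for genes of the embryonic sheath. The limma 95% intervals of noah-2 (from -0.71 to 1.92) and fbn-1 (from -2.20 to 0.46) included 0. noah-1, a relative of the Drosophila sensory cuticle gene nompA, encodes a protein of the matrix that helps the embryo hold its shape as it elongates. The log2 ratio of noah-1 was -2.83 for preparation 1 and -1.75 for preparation 2. Both values lay below 0, and the mean was -2.29 ± 0.76 (SD, n = 2; limma 95% interval from -3.42 to -1.16, adjusted p = 0.0812). After quantile normalization noah-1 passed (limma adjusted p = 0.0447).

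noah-2 encodes a second protein of that sheath. Its log2 ratio was 1.44 for preparation 1 and -0.23 for preparation 2, so the sign was not settled (mean 0.61 ± 1.18, SD, n = 2; limma adjusted p = 0.560). The difference between noah-1 and noah-2 was not tested. fbn-1 encodes a fibrillin-like protein, also of the embryonic sheath. Its log2 ratio was -1.72 for preparation 1 and -0.02 for preparation 2, below 0 by a wide margin on 1 array alone (limma adjusted p = 0.417).

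let-653 and dyf-7 encode ZP proteins of tubes and sense organs. LET-653 lines the lumen of the excretory duct and the developing vulva, and the log2 ratio of let-653 was 0.60 for preparation 1 and 0.18 for preparation 2 (mean 0.39 ± 0.30, SD, n = 2; limma adjusted p = 0.621). DYF-7 anchors the dendrite tips of sensory neurons as their cell bodies move away. dyf-7 had opposite signs, -0.34 and 0.77 on the preparation 1 and 2 arrays (limma adjusted p = 0.817). Of 6 markers of glia and the excretory duct, 0 were called by limma, beside 1.86% of all genes. At an unadjusted p under 0.05 by limma there was 1 of these markers, beside 18.7% of all genes. The largest means among them were those of grl-2 of the duct and pore, at 1.02 and 1.12 on the preparation 1 and 2 arrays, and of fig-1 of amphid glia, at -0.50 and 1.43.

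**Figure D3:**
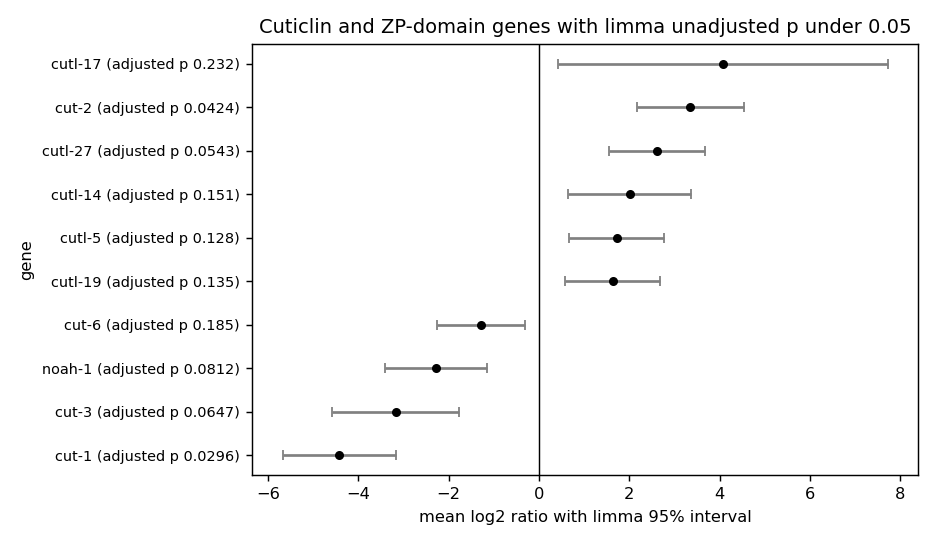
Mean log2 ratio (horizontal axis) of the 10 cuticlin and ZP genes with a limma unadjusted p under 0.05, with the limma 95% interval as a bar and the adjusted p beside the name. By the edge nearest 0, the intervals of cut-1 and cut-2, the 2 genes past the threshold, lie furthest from 0, and the interval of cutl-17 runs from 0.43 to 7.73.

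Some members neighbour each other in the order of protein-coding genes of the WBcel235 assembly, which the selection did not use. cutl-27 and let-653 stand directly side by side on chromosome IV, with log2 ratios of 2.997 and 0.60 for preparation 1 and of 2.23 and 0.18 for preparation 2. cut-2 and cutl-1 on chromosome V have 3 coding genes between them. Their log2 ratios were 3.99 and -0.30 for preparation 1 and 2.71 and 1.25 for preparation 2, those of cutl-1 being averages of 2 probes. Across the 34 genes the arrays correlated at r = 0.64 (Spearman rho 0.55), and at r = 0.81 over the 33 genes without cutl-17. The arrays share the reference RNA, so these are descriptions.

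Other genes of the apical matrix and its making were taken from lists chosen with earlier results known, and their counts stand beside 1.86% called and 18.7% at an unadjusted p under 0.05 over all genes. Of 10 other apical matrix genes 9 were measured and 0 passed by limma, with 3 at an unadjusted p under 0.05. sym-1, a secreted leucine-rich repeat protein of the matrix, had log2 ratios of 1.98 and 2.35 on the preparation 1 and 2 arrays (limma adjusted p = 0.0678). egg-6, a leucine-rich repeat transmembrane protein of the same matrix, was at -2.04 and -2.11 (limma adjusted p = 0.0716). The arrays gave both genes nearly the same ratio, and after quantile normalization both passed (limma adjusted p = 0.0351 for sym-1 and 0.0397 for egg-6).

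Of 15 genes for processing and cross-linking of cuticle proteins 14 were measured, 1 was lower, 0 were higher and 13 did not pass by limma, with 6 at an unadjusted p under 0.05. The gene past the test was the peroxidase gene skpo-1, at -3.37 and -3.34 on the preparation 1 and 2 arrays (limma adjusted p = 0.0306). That list's median was 0.58 for preparation 1 and -1.08 for preparation 2, opposite in sign.

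Of 16 epidermal and seam cell regulators 14 were measured and none passed by limma, with 0 at an unadjusted p under 0.05. The epidermal fate gene lin-26 was at -0.02 and -1.79 on the preparation 1 and 2 arrays, and the GATA factor gene elt-1 at -0.01 and -1.09. Their means were the largest in size and lay below 0, but 9 of the 14 regulators had a mean above 0 (list median 0.11). In the epidermis and seam markers 1 of 10 passed, the nuclear receptor gene nhr-73, at 3.08 and 3.24 (limma adjusted p = 0.0335). The regulators' median was 0.27 for preparation 1 and -0.42 for preparation 2. Of the 14, 11 had opposite signs on the arrays, beside 32.2% of all genes.

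**Figure D4:**
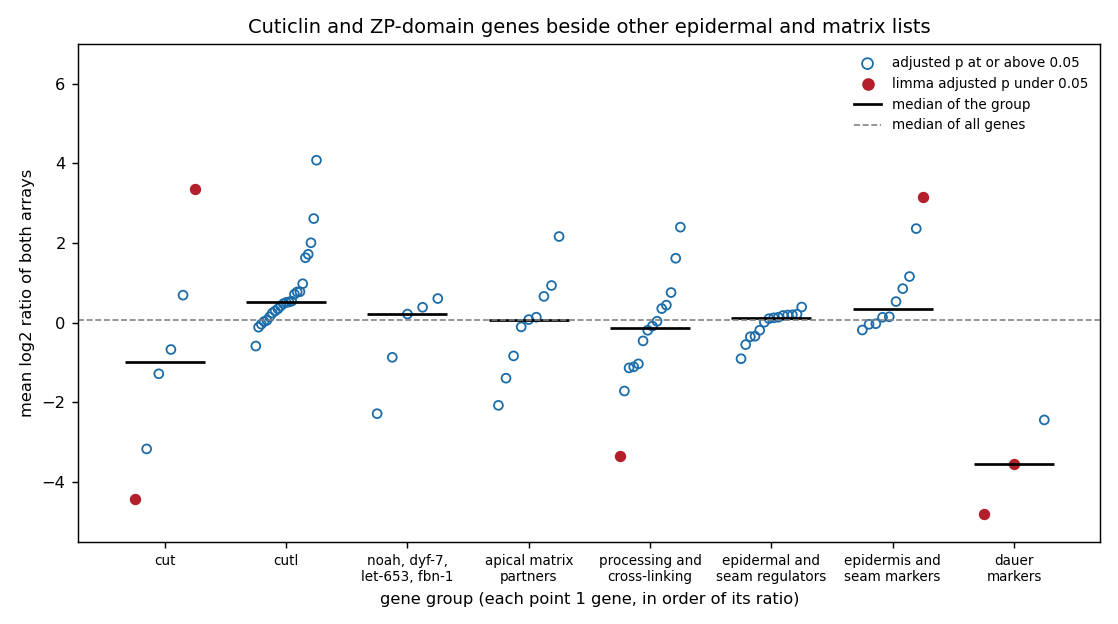
Mean log2 ratio of both arrays (vertical axis) for each gene of the cut, cutl and other ZP groups beside lists of matrix partners, processing enzymes, regulators and markers, with group medians as black bars, the median of all genes as a dashed line, and genes past the limma threshold filled in red. The cut genes span -4.42 to 3.35 and the epidermal regulators stay between -0.91 and 0.39, while the 3 dauer markers all lie below -2.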

How the data were processed

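The authors deposited 1 number for each probe on each array, taken here to be the log2 ratio between its channels. The logarithm's base follows from the steps of the table: raised as a power of 2, 99.1% and 98.8% of values for preparations 1 and 2 fell on multiples of 0.001, with a tolerance of 0.002 of a step. No source used here gives the background correction, scaling, dyes or scanner. Of 21632 probes, 16450 had 1 gene, 247 several and 4935 none. Only the first were used, and 16360 of these took their current symbol from RefSeq (WBcel235) by Entrez ID. Several probes for 1 gene were averaged within an array, with no further centring. Means were compared with 0 by limma 3.58.1 under R 4.3.3 (lmFit, eBayes, Benjamini-Hochberg, threshold 0.05). The fit has 1 residual degree of freedom and a prior of 4.52. It leaves out the spread of the reference itself, and dyes were not known to be swapped, so dye bias is not removed. Signal over background is unknown, since intensities were not used here.

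The members and lists were chosen with earlier results of these data known. Genes are named if past the threshold, 2-fold or more from the reference in both preparations, not cutl genes, or among the 4 nearest 0. From each list, those past the threshold or the 2 with the means largest in size are named. cutl-17, cutl-1 and cutl-2, neighbouring genes and col-40 were named after their values were seen. Alternatives were centring, quantile normalization, a limit of 5 on log2 ratios, leaving out genes with disagreeing probes, robust eBayes and leaving out each preparation. Promoter motifs and protein sequences were not analysed here.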

Additional observations from a re-analysis of the deposited data

How the results depend on the processing

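No paired analysis was possible because there is 1 group. Depth on a spotted array means signal over background, which is unknown here. Leaving out a preparation leaves no residual degrees of freedom, so it gave values and no test; background correction and a filter on dim probes were not run, for want of intensities. The number of genes differing from the reference was 275, and became 467 with each array centred on its median, 605 after quantile normalization and 140 with log2 ratios limited to 5. The 1 cuticlin or ZP gene called lower, cut-1, remained under all 5 alternatives with a test. Centring gave 2 lower genes (cut-3 added) and 2 higher (cutl-27 added to cut-2), and quantile normalization gave 3 lower (cut-3 and noah-1 added) and the same 2 higher. Limiting log2 ratios to 5 left 0 higher by limma, with 6 at an unadjusted p under 0.05. Both values of cut-2 lay within that limit, and its mean stayed at 3.35. Which step of the fit or adjustment moved its adjusted p was not tested. With centring, the means of cutl-3 and cutl-2 turned to -0.033 and -0.0014. Without replicate 1 or 2, on the array left, genes at least 2-fold below the reference numbered 2067 to 2593 in all and 4 to 5 among the cuticlins and ZP genes. Those at least 2-fold above numbered 1967 to 1994 in all and 9 among the cuticlins and ZP genes on either array, and the median of the 34 genes was 0.17 to 0.41. Over the alternatives with a test, limma adjusted p ranged from 0.0038 to 0.0439 for cut-1 and from 0.0129 to 0.0599 for cut-2.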
